A study of Mus musculus with 6 samples.

Results

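The genes described here are 9 parts of the LIF and STAT3 pathway: the receptor genes Lifr and Il6st, the kinase genes Jak1 and Jak2, the transcription factor gene Stat3, the feedback inhibitor genes Socs2 and Socs3, and the target kinase genes Pim1 and Pim3. They were chosen by gene symbol for their place in the pathway, and all 9 were found among the 24984 symbols of the count tables and passed the filter on low counts, which kept 15663 genes. The libraries came from E14TG2a, a mouse embryonic stem cell line, grown in N2B27, a defined serum-free medium. Whether LIF itself was added to the medium is not given in the sources used here. There were 3 groups of 2 libraries: unmodified cells (WT), cells in which CRISPR/Cas9 had disrupted Mettl3 (KO), and cells in which a CRISPR-directed insertion had placed the D395A substitution in METTL3 (D395A). METTL3 is the enzyme that methylates adenosine in RNA (m6A), and D395A alters its active site. The design text names the relation of m6A to circular RNA as the purpose, and it does not mention LIF. The labels do not say whether an edited line descends from a single cell or whether replicate libraries were grown separately. P-values therefore measure the spread between these libraries only, and the edit cannot be told apart from the history of each line.

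LIF is a cytokine that keeps mouse embryonic stem cells self-renewing. It binds the receptor LIFR, which pairs with the shared signalling chain gp130 (the product of Il6st). The receptor pair activates JAK kinases, which phosphorylate STAT3, and STAT3 enters the nucleus and switches on target genes. SOCS proteins are made in response and damp the signal, and the PIM kinases are growth-promoting targets of the same pathway. RNA abundance, which is what was measured here, does not report the phosphorylation of STAT3.

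Gene counts ranged from 22859491 to 40476809 per library. Levels are given as CPM, counts relative to the library total in the usual CPM unit, scaled between libraries by trimmed means (TMM). A difference is a log2 fold change ± SE from an edgeR quasi-likelihood fit with p-values adjusted over all tested genes. The SE was derived from the test, as the absolute log2 fold change over the square root of its F statistic. Mettl3, the targeted gene, held 28.5 and 31.6 CPM in WT cells, 7.82 and 6.17 CPM in KO cells, and 21.1 and 23.4 CPM in D395A cells, and 18.4% of its exon bases overlap Tox4. The KO libraries differed in their share of reads that counting placed on no feature. It was 31.1% in replicate 1 and 22.3% in replicate 2, against 30.2% in both WT libraries and 37.3% and 33.8% in D395A. Of 8 embryonic stem cell markers, 4 rose and 2 fell in KO, whereas 7 fell and 0 rose in D395A. Their summed level was 4059.9 to 4117.3 CPM in WT cells, 4781.6 to 4808.4 CPM in KO cells and 1920.7 to 1984.5 CPM in D395A cells. None of these markers was at 0 counts in any group. Nanog alone held 931.0 and 909.9 CPM in WT cells and 1545.5 and 1609.2 CPM in KO cells, and the 2 that fell in KO were Zfp42 and Tdgf1. Summed levels of other marker lists, of 8 genes each, also differed between the groups. Extraembryonic endoderm markers summed to 10.7 to 11.3 CPM in WT and 26.6 to 28.0 CPM in D395A, where Foxa2 alone held 20.2 and 22.5 CPM, and lay at 5.80 to 7.06 CPM in KO. Of the 5 tested, only 1 (Foxa2) was higher in D395A than in WT, and 2 (Gata4 and Gata6) were lower. Neuroectoderm markers summed to 86.7 to 91.0 CPM in WT, 56.4 to 56.5 CPM in KO cells, and 65.3 to 65.5 CPM in D395A cells. In D395A 6 were higher and 2 (Nes and Tubb3) lower than WT. In KO 0 were higher, 2 (Pax6 and Tubb3) were lower and 6 did not pass. Tubb3 alone held 45.8 and 42.8 CPM in WT and 11.5 and 11.6 CPM in KO. Trophoblast markers summed to 64.0 to 65.0 CPM in WT, 55.4 to 56.2 CPM in KO cells, and 68.6 to 72.0 CPM in D395A cells, where 4 of 7 tested were higher and 1 lower. Mesoderm markers were at 9.32 to 12.0 CPM in WT, 6.54 to 6.91 CPM in KO cells, and 4.88 to 5.41 CPM in D395A cells, and blood markers at 19.7 to 20.7, 17.6 to 19.1 and 6.65 to 7.58 CPM. Feeder fibroblast markers were at 5.95 CPM in both WT libraries, 7.39 to 8.41 CPM in KO cells, and 3.47 to 5.88 CPM in D395A cells, where 3 of 5 tested were higher and 2 lower. Among those 3, Twist2, had 53 counts in 1 D395A library and 0 in the other. The blood genes Adgre1, Hba-a1 and Hbb-bt were at 0 counts in all 6 libraries, and Ptprc, Col3a1 and Lum were at 0 in WT and KO and at no more than 23 counts in any D395A library. Against WT, 36.3% of all tested genes were higher in D395A and 34.0% lower. In RNA from whole cultures, fewer cells that express a gene and less of its RNA per cell cannot be told apart.

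The receptor genes behaved differently from each other in D395A. Lifr, which encodes the chain that binds LIF, lies on the plus strand of chromosome 15 (GRCm38, 7090614 to 7197489). It held 183.2 and 189.0 CPM in WT cells, 199.8 and 208.5 CPM in KO cells, and 129.7 and 144.7 CPM in D395A cells. The D395A libraries lay below all others and the KO libraries above all others, without overlap. Lifr fell in D395A by a log2 fold change of -0.44 ± 0.07 against WT (adjusted p = 9.5e-05) and of -0.57 ± 0.07 against KO (adjusted p = 2e-05). The difference of KO from WT, 0.13 ± 0.07, did not pass (adjusted p = 0.10, and from 0.0053 to 0.37 over the alternatives). It passed with the stricter filter on low counts (adjusted p = 0.022), in a fit of WT and KO alone (0.0053), and without D395A replicate 1 (0.020) or replicate 2 (0.021).

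Il6st encodes gp130, which LIF shares with interleukin-6 and related cytokines. It lies on the plus strand of chromosome 13 (112464070 to 112510086) and held 133.8 and 135.0 CPM in WT cells, 139.9 and 143.0 CPM in KO cells, and 127.0 and 144.0 CPM in D395A cells. The D395A libraries were the lowest and the highest of all 6 and enclosed the values of the other groups, while WT and KO did not overlap. None of the 3 comparisons passed, with log2 values of 0.07 ± 0.07 for KO against WT (adjusted p = 0.36), 0.01 ± 0.07 for D395A against WT (adjusted p = 0.86) and -0.06 ± 0.07 for D395A against KO (adjusted p = 0.50). Without D395A replicate 2, D395A stood below KO by a log2 value of -0.16 (adjusted p = 0.041), and over all alternatives this adjusted p ranged up to 0.72.

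**Figure D1:**
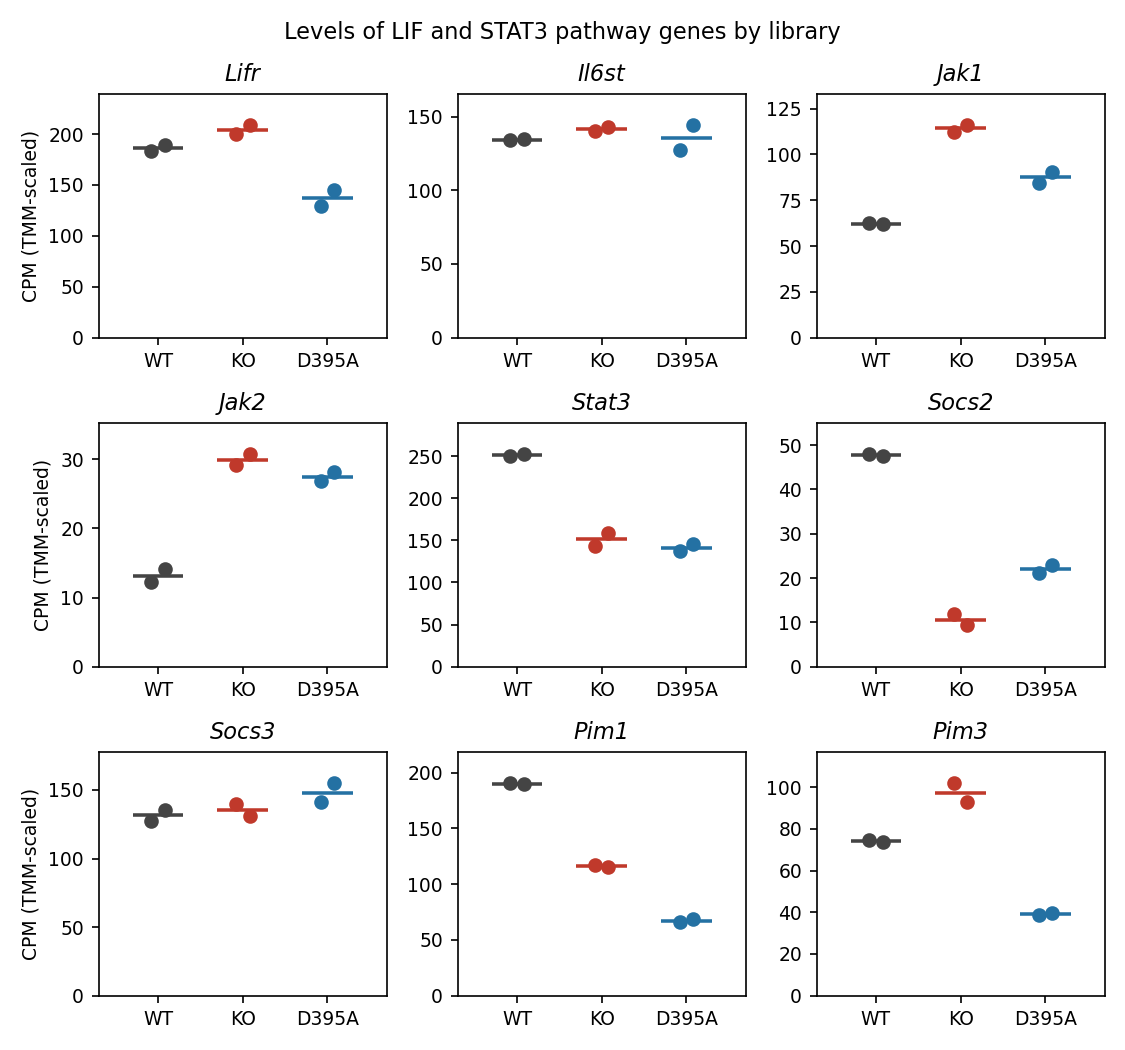
Levels of the 9 genes in CPM (vertical axis, TMM-scaled, from 0) for WT, KO and D395A; each point is 1 library and each line the mean of 2. Stat3, Socs2 and Pim1 are low in KO and D395A, Jak1 and Jak2 are high, Pim3 is high in KO and low in D395A, and Il6st and Socs3 lie close together in all 3 groups.

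The kinase genes rose in the edited lines. Jak1, the JAK that gp130 receptors depend on most, lies on the minus strand of chromosome 4 (101152367 to 101265282). It held 62.4 and 62.0 CPM in WT cells, 112.5 and 115.9 CPM in KO cells, and 84.5 and 90.6 CPM in D395A cells. The 3 groups formed separate steps with D395A between WT and KO. Jak1 rose by 0.88 ± 0.06 in KO (adjusted p = 7.4e-08) and by 0.49 ± 0.06 in D395A (adjusted p = 1.4e-05), and D395A was lower than KO by a log2 value of -0.38 ± 0.06 (adjusted p = 0.00022).

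Jak2, a related kinase better known from growth hormone and erythropoietin receptors, lies on the plus strand of chromosome 19 (29251828 to 29313080). It had the lowest level of the 9 genes in WT per kilobase of exon, with 12.2 and 14.1 CPM, and held 29.2 and 30.7 CPM in KO cells and 26.8 and 28.1 CPM in D395A cells. Every library of the edited lines was above both WT libraries. The rise was 1.19 ± 0.09 in KO (adjusted p = 9.9e-08) and 1.07 ± 0.09 in D395A (adjusted p = 2.8e-07), and the difference between the edited lines, -0.12 ± 0.08, did not pass (adjusted p = 0.24).

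Stat3, the transcription factor at the centre of the pathway, fell in KO and in D395A. It lies on the minus strand of chromosome 11 (100885098 to 100939540), and 72 of its exon bases (0.756%) overlap Stat5a on the opposite strand. Stat3 held 249.6 and 252.0 CPM in WT cells, 143.6 and 158.6 CPM in KO cells, and 137.0 and 145.1 CPM in D395A cells. All libraries of the edited lines were well below WT, and those of KO and D395A overlapped. The change was -0.73 ± 0.07 in KO (adjusted p = 9e-07) and -0.83 ± 0.07 in D395A (adjusted p = 2.7e-07), and D395A against KO, at -0.10 ± 0.07, did not pass (adjusted p = 0.26).

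Stat3 and Socs3 share chromosome 11, on which tested genes as a whole were lower in the edited lines. The median log2 fold change of its 1300 tested genes was -0.41 in KO and -0.49 in D395A, against 0.01 and 0.02 over all genes. The log2 value of Stat3 minus that median was -0.32 in KO and -0.34 in D395A, and 31.8% and 32.0% of the genes on the chromosome had lower values. Socs3 stood 0.46 above the same median in KO and 0.66 above it in D395A, with 70.7% and 77.8% of the genes on the chromosome lower. The chromosomes of the other 7 genes had medians between -0.12 and 0.28 in the comparisons with WT. The part of the chromosome 11 shift in the fall of Stat3 was not tested.

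**Figure D2:**
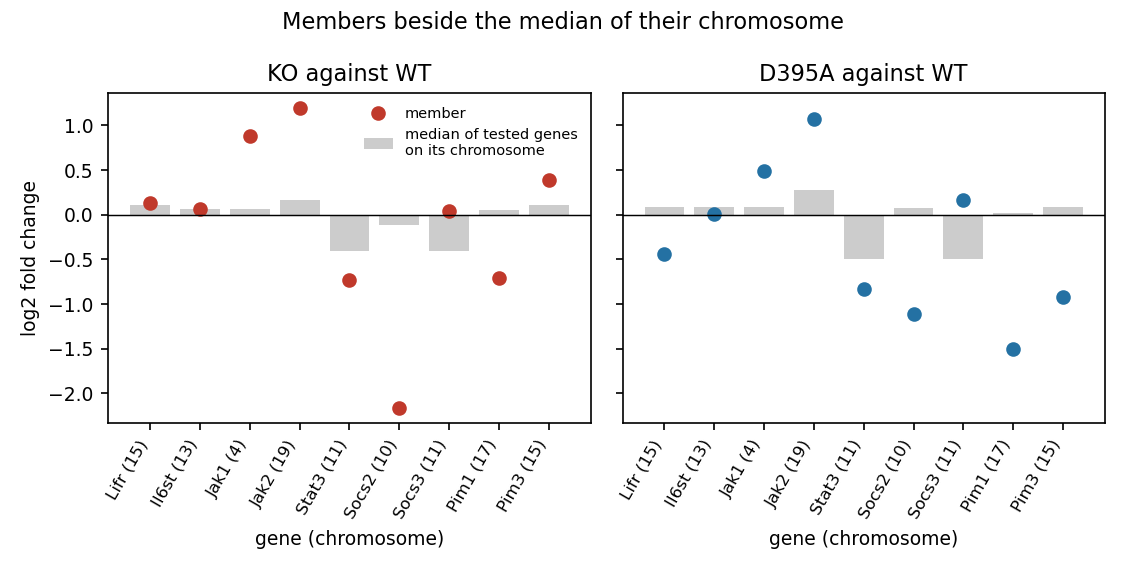
Log2 fold change of each gene (point) beside the median of all tested genes on its chromosome (bar; chromosome number in brackets) for KO against WT and D395A against WT. Only the bars of Stat3 and Socs3, on chromosome 11, lie below -0.4; Stat3 is below its bar and Socs3 above it.

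The feedback inhibitors Socs2 and Socs3 parted from each other. Socs2, a STAT-induced inhibitor best known for limiting growth hormone signalling, lies on the minus strand of chromosome 10 (95385362 to 95417180). It held 47.9 and 47.6 CPM in WT cells, 11.9 and 9.36 CPM in KO cells, and 21.2 and 22.9 CPM in D395A cells. The groups were far apart, with KO lowest and D395A between KO and WT. Socs2 fell by a log2 value of -2.16 ± 0.10 in KO (adjusted p = 1.6e-09), or 4.48-fold, and of -1.11 ± 0.09 in D395A (adjusted p = 3e-07), or 2.16-fold. D395A was above KO by 1.05 ± 0.10 (adjusted p = 3.4e-06).

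Socs3, the inhibitor that binds gp130 and JAK and a rapid target of STAT3, lies on the minus strand of chromosome 11 (117966079 to 117970047). Its promoter is shown because it was the only one of the members' promoter windows with a match to the STAT motif, and those of Stat3, on the same chromosome, and Pim3, another target of the pathway, are set beside it as windows without a match. RefSeq sequences (GRCm38.p6) of the 250 bases before the start site were at hand for 8 of the 9 genes, in 10 windows. The motif searched was TTCNNNGAA, which reads the same on either strand. It occurred in 7.02% of all 32851 promoter windows of this length, and the stricter form TTCCNGGAA, which is a subset of it, occurred in 0.913% of all windows and in 0 of the members' windows. Sequences run 5′ to 3′ on the strand of the gene, and capitals mark the motif, which starts at base -154 from the RefSeq start site of Socs3. The windows are chr11:117969367-117969616 (minus strand) for Socs3, chr11:100939541-100939790 (minus strand) for Stat3 and chr15:88861944-88862193 (plus strand) for Pim3. The Socs3 window lies wholly inside the span of the gene given above, so the RefSeq start site lies downstream of the 5′ end of that span. The Stat3 window abuts the span of its gene, and the Pim3 window reaches slightly into its own. Which start site these cells use was not tested. A match is a description of these letters and not evidence of binding.
Socs3: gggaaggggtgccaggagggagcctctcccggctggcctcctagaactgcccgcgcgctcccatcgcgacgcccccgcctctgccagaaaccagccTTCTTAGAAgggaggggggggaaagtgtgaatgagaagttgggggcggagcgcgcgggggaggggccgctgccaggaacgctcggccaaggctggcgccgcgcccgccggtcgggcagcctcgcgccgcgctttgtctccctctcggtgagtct
Stat3: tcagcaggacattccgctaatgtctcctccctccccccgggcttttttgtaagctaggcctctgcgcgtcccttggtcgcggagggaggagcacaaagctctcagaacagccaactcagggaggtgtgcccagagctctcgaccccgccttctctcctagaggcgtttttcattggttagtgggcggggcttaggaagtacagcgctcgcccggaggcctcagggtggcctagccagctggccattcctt
Pim3: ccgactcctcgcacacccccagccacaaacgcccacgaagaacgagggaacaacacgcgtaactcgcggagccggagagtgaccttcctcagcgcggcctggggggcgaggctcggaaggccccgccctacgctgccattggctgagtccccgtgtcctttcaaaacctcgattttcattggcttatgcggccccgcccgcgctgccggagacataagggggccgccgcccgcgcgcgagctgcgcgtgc

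Socs3 held 127.6 and 135.2 CPM in WT cells, 140.1 and 130.7 CPM in KO cells, and 141.4 and 154.8 CPM in D395A cells. The KO libraries overlapped those of WT, and the D395A libraries were above all others. The difference of KO from WT was 0.04 ± 0.07 (adjusted p = 0.59). In D395A Socs3 was higher by 0.17 ± 0.07 (adjusted p = 0.038), a 1.13-fold difference. This call rested on single libraries: it ended without WT replicate 1 (0.13, adjusted p = 0.29), without WT replicate 2 (0.21, adjusted p = 0.093), without D395A replicate 2 (0.10, adjusted p = 0.18) and when Rn45s, the ribosomal RNA precursor gene, was left out before scaling (0.16, adjusted p = 0.050), with adjusted p from 0.0063 to 0.29 over all alternatives. D395A against KO, at 0.13 ± 0.07, did not pass (adjusted p = 0.14).

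The PIM kinase genes moved in opposite directions in KO and in the same direction in D395A. Pim1, a serine/threonine kinase that promotes survival, lies on the plus strand of chromosome 17 (29490753 to 29496112), and 14.5% of its exon bases overlap the noncoding gene Gm26885 on the opposite strand. It held 190.3 and 189.6 CPM in WT cells, 116.9 and 114.9 CPM in KO cells, and 65.8 and 68.6 CPM in D395A cells. The groups formed 3 separate steps, each with libraries within 1.04-fold of each other. Pim1 fell by a log2 value of -0.71 ± 0.06 in KO (adjusted p = 3.1e-07) and of -1.50 ± 0.06 in D395A (adjusted p = 4.9e-10), and D395A was below KO by a log2 value of -0.79 ± 0.06 (adjusted p = 3.6e-07).

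Pim3, a close relative of Pim1, lies on the plus strand of chromosome 15 (88862186 to 88865726). It held 74.7 and 73.9 CPM in WT cells, 101.9 and 93.0 CPM in KO cells, and 38.9 and 39.6 CPM in D395A cells. The KO libraries were above WT and the D395A libraries below it. Pim3 rose by 0.39 ± 0.06 in KO (adjusted p = 0.00013) and fell by a log2 value of -0.92 ± 0.07 in D395A (adjusted p = 8.9e-08). The difference between the edited lines, -1.31 ± 0.07 for D395A against KO (adjusted p = 8.4e-09), was larger than that of any other of the 9 genes between these lines.

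**Figure D3:**
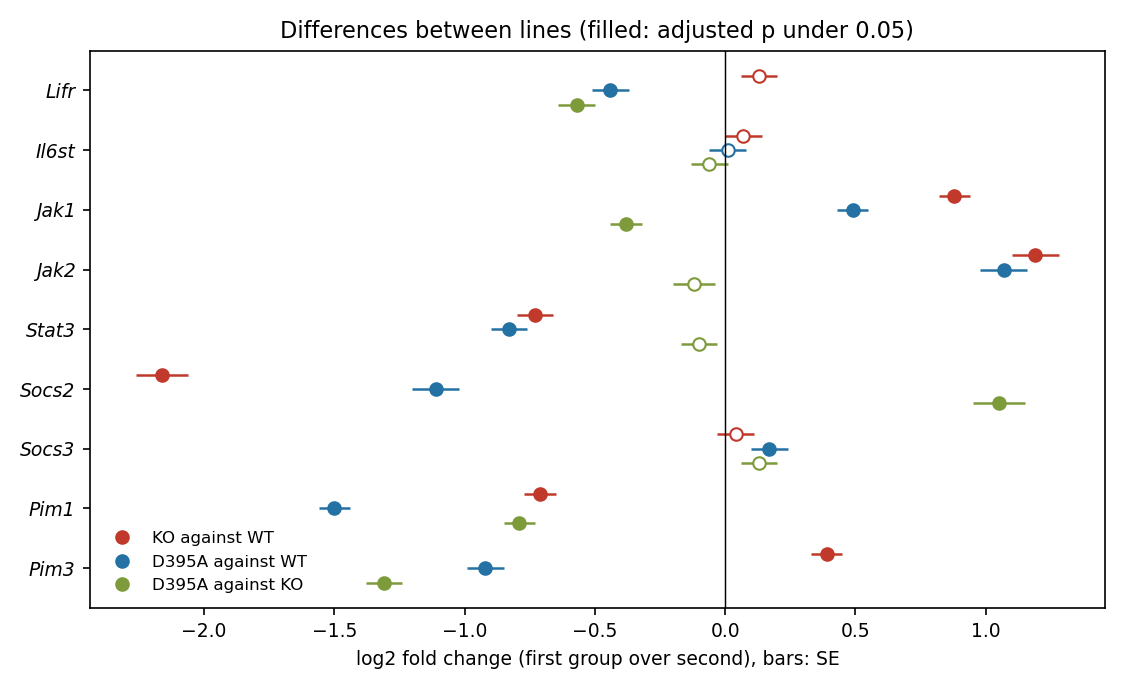
Log2 fold change of each gene (horizontal axis) for each edited line against WT and for D395A against KO. Bars are the SE derived from the F statistic, and filled points passed an adjusted p of 0.05. Socs2 has the lowest value in KO at -2.16 and Pim1 in D395A at -1.50, Jak2 has the highest value in each, and the D395A against KO points put Socs2 higher and Pim3 lower in D395A.

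In KO 6 of the 9 genes passed the test, 3 higher (Jak1, Jak2, Pim3) and 3 lower (Stat3, Socs2, Pim1), where 66.2% of all tested genes passed (33.6% higher and 32.6% lower). In D395A 8 of 9 passed, 3 higher (Jak1, Jak2, Socs3) and 5 lower (Lifr, Stat3, Socs2, Pim1, Pim3), against 70.3% of all genes (36.3% higher and 34.0% lower). Between D395A and KO 5 of 9 passed, 1 higher in D395A (Socs2) and 4 lower (Lifr, Jak1, Pim1, Pim3), against 50.4% of all genes (26.5% higher and 23.8% lower). The counts in KO (66.7%) and between the edited lines (55.6%) are close to the background. That in D395A (88.9%) lies above it, but it includes Socs3, whose call did not hold under every alternative. No test was run on these shares of only 9 genes. Genes past the test and changed at least 2-fold were Jak2 and Socs2 in KO (24.3% of all genes), Jak2, Socs2 and Pim1 in D395A (29.0%), and Socs2 and Pim3 between the edited lines (15.9%). The median log2 fold change of the 9 genes was 0.07 in KO and -0.44 in D395A, beside 0.01 and 0.02 over all genes. KO and D395A were compared with the same WT libraries, so these comparisons are not independent of each other. The stem cell markers that fell in D395A moved with the falls of Lifr, Stat3, Socs2, Pim1 and Pim3 there, and their part in these falls was not tested. In KO, where the summed markers were above WT but 4 of them rose and 2 fell, Stat3, Socs2 and Pim1 were lower as well. The part of the markers there was not tested either.

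Levels can be set against each other only per length, as CPM per kilobase of exon. On this scale the order in WT was Pim1 (61.1), Socs3 (51.5), Stat3 (40.3), Pim3 (30.6), Lifr (17.9), Socs2 (17.7), Jak1 (12.7), Il6st (12.2) and Jak2 (2.61). Lifr and Socs2 did not differ beyond the spread of their libraries, and the other neighbours in this order did not overlap. In KO Socs3 came first at 53.1, followed by Pim3 (40.2) and Pim1 (37.2), and Socs2 came last at 3.94. Stat3 (24.3) and Jak1 (23.3) overlapped there. In D395A Socs3 led at 58.0, well above Stat3 at 22.6 and Pim1 at 21.6, which overlapped, and Jak2 was last at 5.46. Lifr (13.2) and Il6st (12.4) also overlapped in D395A.

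Ratios between these genes within 1 library do not depend on how libraries are scaled. Counts of Socs3 per kilobase were 1.25 and 1.31 times those of Stat3 in WT, 2.38 and 2.01 times in KO, and 2.52 and 2.60 times in D395A. All libraries of the edited lines had more Socs3 RNA per Stat3 RNA than either WT library. The ratio of Pim3 to Pim1 per kilobase was 0.504 and 0.500 in WT cells, 1.12 and 1.04 in KO cells, and 0.759 and 0.740 in D395A cells. On this scale Pim1 was the more abundant of the pair in WT and D395A and the less abundant in KO. Before division by length the ratio in KO was 0.872 and 0.81, so the order there depends on the exon lengths used. Per kilobase, counts of Socs3 were 2.82 and 3.01 times those of Socs2 in WT, 12.4 and 14.8 times in KO, and 7.06 and 7.15 times in D395A. Lifr stood at 1.45 and 1.48 times Il6st in WT and 1.51 and 1.54 times in KO, but at 1.08 and 1.06 times in D395A. These ratios are a description, and no test was run on them.

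**Figure D4:**
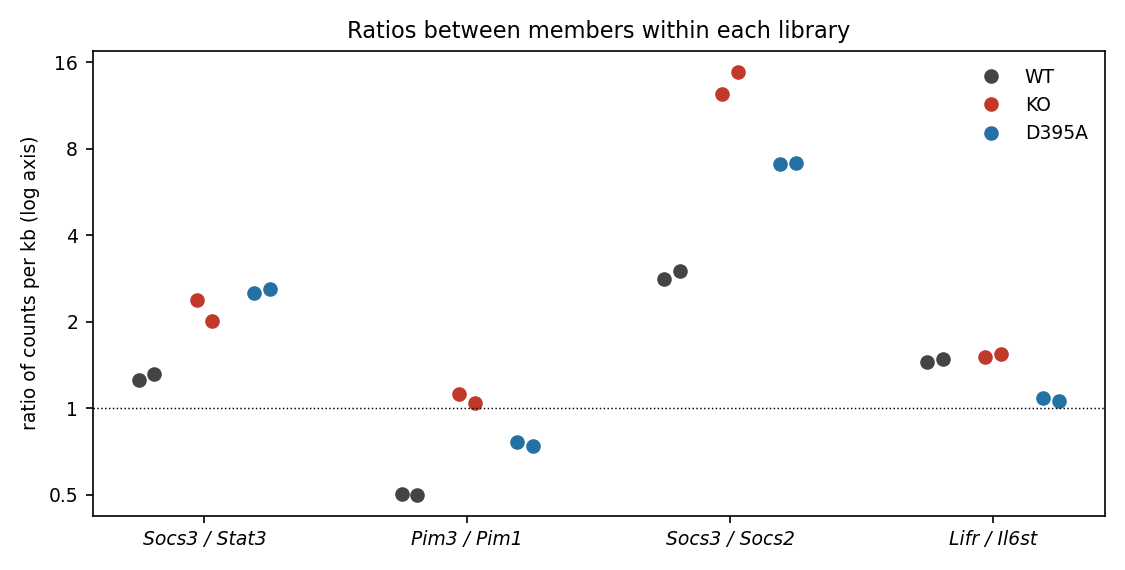
Ratio of counts per kilobase between 2 genes in the same library (vertical axis, log scale) for 4 pairs; each point is 1 library of WT, KO or D395A. The groups are separate in every pair, with the widest gap for Socs3 over Socs2, from 2.82 in a WT library to 14.8 in a KO library.

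Beyond the 9 genes, 65 other genes of the pathway were listed by role, and 57 of them passed the filter on low counts. In KO 20 were higher, 21 lower and 16 did not pass, and in D395A 20 were higher, 22 lower and 15 did not pass. Of all tested genes 66.2% passed in KO (33.6% higher, 32.6% lower) and 70.3% in D395A (36.3% higher, 34.0% lower), which is the background for these counts and for those of each role. The counts were not tested against it. Their median log2 fold changes, 0.05 in KO and 0.00 in D395A, were close to those of all genes. Of these 57, 6 lie on chromosome 11 and 5 on chromosome 8, whose tested genes had medians of -0.48 in KO and -0.35 in D395A.

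Among 11 ligands of the family, 6 passed the filter, of which 2 were higher and 1 lower in KO, and 1 higher and 1 lower in D395A. The 2 higher in KO were Lif and Cntf, and Cntf held only 16 and 12 counts in WT and 33 and 39 in KO. Its value is uncertain, as 78.9% of its exon bases overlap Zfp91 on the same strand. Lif itself was detected in every library, at 8.33 and 7.06 CPM in WT cells, 10.1 and 10.4 CPM in KO cells, and 10.4 and 10.8 CPM in D395A cells. It was higher by 0.41 ± 0.12 in KO (adjusted p = 0.0074) and by 0.46 ± 0.12 in D395A (adjusted p = 0.0035), and was chosen for naming after its values were seen. Osm, which encodes the related cytokine oncostatin M and lies close to Lif on chromosome 11, held 11.5 and 10.9 CPM in WT cells, 0.483 and 0.807 CPM in KO cells, and 1.45 and 1.36 CPM in D395A cells. Osm fell, with log2 values of -4.11 ± 0.22 in KO and -3.00 ± 0.20 in D395A, so Lif and Osm moved in opposite directions.

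All 4 other receptor genes that passed the filter changed in each edited line, 2 higher and 2 lower. Il6ra, the receptor chain specific for interleukin-6, held 13.9 and 12.9 CPM in WT cells, 3.75 and 2.97 CPM in KO cells, and 0.937 and 1.25 CPM in D395A cells. It fell in both lines, with log2 values of -1.99 ± 0.16 in KO and -3.58 ± 0.19 in D395A, and the difference between the lines also passed (-1.59 ± 0.21, adjusted p = 3.8e-05). Il27ra, a receptor of interleukin-27 that signals with gp130, fell in both lines, with log2 values of -2.75 ± 0.40 in KO and -4.34 ± 0.48 in D395A, from a WT mean of 3.11 CPM. Its D395A libraries held only 3 and 6 counts. Cntfr, the receptor chain for ciliary neurotrophic factor, which joins LIFR and gp130, rose by 2.14 ± 0.16 in KO and by 1.79 ± 0.16 in D395A. Its libraries held 2.90 and 3.45 CPM in WT cells, 15.4 and 12.5 CPM in KO cells, and 9.58 and 12.1 CPM in D395A cells.

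Of the 8 other JAK and STAT genes, 6 fell and 1 rose in KO, where 32.6% of all tested genes were lower, and 5 fell and 1 rose in D395A, where 34.0% were lower. Their medians were -0.70 and -0.46. Of those that fell in KO, Stat5a and Stat5b lie on chromosome 11 and Jak3 on chromosome 8, whose medians are given above, and Stat5a and Jak3 also fell in D395A. The part of these chromosomes in the counts was not tested. Of the 13 other inhibitor genes that passed the filter, 8 rose and 2 fell in KO, and 7 rose and 3 fell in D395A. Socs5, an inhibitor of the SOCS family, held 6.98 and 7.19 CPM in WT cells, 39.6 and 36.8 CPM in KO cells, and 37.5 and 38.5 CPM in D395A cells. It rose by 2.43 ± 0.08 in KO and 2.42 ± 0.08 in D395A. Cish, a SOCS family member induced by STAT5, rose by 2.26 ± 0.20 and 2.23 ± 0.20 from 1.13 and 1.02 CPM in WT. Socs2 thus fell in lines where its relatives Socs5 and Cish rose, but the other SOCS genes of this list were mixed. Socs6 rose in both lines, Socs7 rose in KO only, Socs4 fell in both, and Socs1 did not pass in either. They were named after their values were seen.

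Of 8 adaptor and kinase genes of the other branches, 3 rose and 4 fell in KO, and 4 rose and 3 fell in D395A. Of 18 other LIF and STAT3 targets, 4 rose and 6 fell in KO, and 5 rose and 8 fell in D395A. Ier3, an immediate early gene, held 9.17 and 10.3 CPM in WT cells, 1.39 and 0.980 CPM in KO cells, and 1.36 and 1.39 CPM in D395A cells, and fell with log2 values of -3.03 ± 0.20 in KO and -2.82 ± 0.20 in D395A. Tbx3, a transcription factor of the naive state, held 283.1 and 281.6 CPM in WT cells, 411.9 and 380.2 CPM in KO cells, and 17.7 and 19.2 CPM in D395A cells. It rose in KO by 0.49 ± 0.07 and fell in D395A by a log2 value of -3.93 ± 0.08, the same directions as Pim3.

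**Figure D5:**
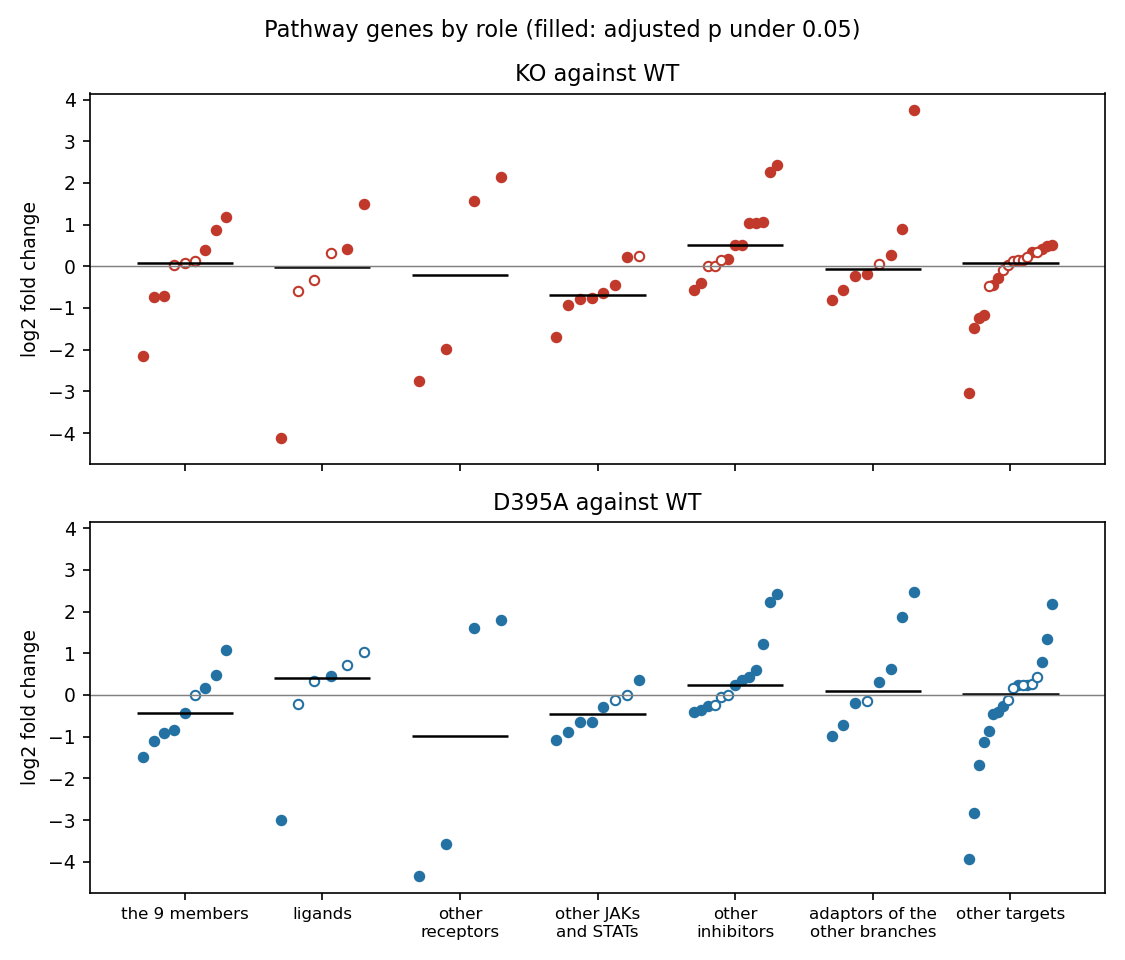
Log2 fold change of each tested pathway gene (points, ordered within a role) for KO against WT and D395A against WT; filled points passed an adjusted p of 0.05 and black lines are medians. In both panels points lie on both sides of 0 in every role, and the other JAK and STAT genes have medians below 0 (-0.70 and -0.46).

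Among 11905 genes with a mean of at least 2 CPM over all libraries and counts in each of them, those whose profiles lay closest to 3 of the members were sought, by the root mean square difference of centred log2 CPM over the 6 libraries. For Stat3 they were Kif2a, a kinesin that depolymerizes microtubules (0.0191), Tgoln1, a trans-Golgi protein gene (0.0209), and Banp (0.0277). Kif2a held 106.2 CPM in WT cells, 64.2 CPM in KO cells and 60.1 CPM in D395A cells. For Socs3 they were the kinase gene Mark4 (0.0306), the ubiquitin ligase gene Pja2 (0.0313) and Slf2 (0.0324). For Lifr they included Esrrb, a nuclear receptor of the naive state (0.0337), and the basement membrane gene Nid2 (0.0347). Esrrb averaged 678.5 CPM in WT cells, 748.7 CPM in KO cells and 494.6 CPM in D395A cells. Among the 9 genes themselves the closest pair was Il6st and Socs3 (0.0961), followed by Lifr and Il6st (0.228) and Jak1 and Jak2 (0.244), and the most distant was Jak2 and Socs2 (1.40). Stat3 lay closer to Pim1 (0.324) than to Socs3 (0.436) or Socs2 (0.640). These profiles rest on only 3 groups of 2 libraries.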

How the data were processed

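Strand-specific libraries were made from total RNA after removal of ribosomal RNA, per the labels' protocols. The authors deposited 1 table of raw counts per gene symbol for each of 6 libraries. The submitters' processing notes name Trimmomatic 0.36, STAR 2.7, HTSeq 0.11.2 and mm10. The annotation and the strand setting of counting are not named there, and values of genes whose exons overlap another gene, on either strand, are uncertain. Lines that name no gene (29.0% to 44.2% of each file's total) were left out.

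The counts were fitted with edgeR 4.0.16 (R 4.3.3): filterByExpr, TMM scaling and the quasi-likelihood F test with all 6 libraries in 1 model (3 residual degrees of freedom), with Benjamini-Hochberg adjustment over 15663 genes and a threshold of 0.05. A single count was worth 0.0246 to 0.0426 CPM. Libraries of a group differed beyond sampling noise (a chi-square over its degrees of freedom of 3.19 for WT, 6.48 for KO and 11.1 for D395A libraries). Positions and exon lengths came from GENCODE M21 (GRCm38), which held 97.9% of the symbols. Lengths are the merged exons of its basic transcript set, and overlaps with other genes are shares of all annotated exon bases. The closing section gives the alternatives, among them DESeq2 1.42.0 and limma 3.58.1 (voom).

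The 9 genes, the lists and the tests were chosen with earlier results of these data known. Named besides the 9 genes and Mettl3 are, for each comparison with WT, the 8 other listed pathway genes with the largest change past the test and a mean of at least 2 CPM in either group, and the 3 genes closest in profile to Stat3, Socs3 and Lifr. Some genes that this rule names are not reported here. The profile comparison needed counts in every library, a condition added to the rule so that logarithms exist.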

Additional observations from a re-analysis of the deposited data

How the results depend on the processing

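With each alternative (other scalings, filters on low counts, robust fitting, Rn45s left out, only the compared groups, voom, DESeq2 and 1 library left out), the number of the 9 genes that passed was 6 to 7 for KO against WT, 7 to 8 for D395A against WT and 5 to 6 for D395A against KO. Genes called over the whole table ranged from 8523 to 10769, from 8781 to 11420 and from 6890 to 8365, and with 1 library left out from 8523 to 10682, from 9398 to 11364 and from 6918 to 7151. Of 144 values for the 9 genes in each comparison, 139, 135 and 141 kept their direction and their side of the threshold. Where a library was left out, its group's remaining library was assumed to vary like the other groups.

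Signs turned for Socs3, Il6st, Socs5, Cish and Ier3, in comparisons that had not passed the test. Socs3 in KO against WT was -0.003 without KO replicate 1, and up to 0.09 without another library. Il6st in D395A against WT was -0.00068 with RLE scaling, -0.00089 without a filter, -0.00083 with Rn45s left out, -0.00092 with DESeq2 and -0.08 to 0.10 with 1 library left out (-0.08 without D395A replicate 2). In D395A against KO, leaving out 1 library gave -0.16 to 0.03 for Il6st (0.03 without D395A replicate 1), -0.06 to 0.04 for Socs5 (0.04 without KO replicate 1, 0.01 without D395A replicate 1), -0.14 to 0.05 for Cish (0.05 without D395A replicate 1) and -0.02 to 0.48 for Ier3 (-0.02 without KO replicate 2), and Socs5 was 0.00033 with upper-quartile scaling. Socs3 in D395A against KO passed without D395A replicate 1 (0.19, adjusted p = 0.029, with a range of 0.029 to 0.53 over its alternatives). The causes were not tested.

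Whether libraries with the same replicate number were handled together is not given. The replicate differences of WT and KO correlated at 0.014 over genes, those of WT and D395A at 0.0096 and those of KO and D395A at -0.21. With a single difference per group, these correlations cannot decide whether libraries were paired. With the replicate number as a block, 10220, 10843 and 7832 genes passed, and 6, 8 and 5 of the 9 genes. With the numbers of KO and D395A crossed, an alternative chosen after seeing the data, 7696 genes and 5 of the 9 passed between these lines. Il27ra and Osm, which had few counts in the edited lines, lost their call between these lines in some alternatives, and the part of depth in this was not tested.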
